A study of Mus musculus with 12 samples.

Results

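The interferon regulatory factor (IRF) family was followed in CD4+ T cells from the lungs of young mice that had aspirated Escherichia coli, or saline buffered with phosphate (PBS), 48 h earlier. The 8 members were the rows of the deposited count table for Irf1, Irf2, Irf3, Irf4, Irf5, Irf7, Irf8 and Irf9, out of 19434 gene rows, and all 8 passed the filter on low counts with 11062 genes in all. IRF proteins are transcription factors that share a DNA-binding domain and recognise interferon-stimulated response elements. Irf1 and Irf4 are known as genes that T cells switch on after cytokine or antigen receptor signals. Irf7 and Irf9 are themselves interferon-stimulated genes that carry the type I interferon response forward.

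The study is on DNA methylation in CD4+ T cells of neonatal mice with pneumonia, and its RNA counts were analysed here. The groups were juvenile E. coli, juvenile PBS, neonatal E. coli and neonatal PBS, with 3 libraries each. All mice were male and female C57BL/6NJ. Juveniles aspirated at day 15 and neonates at day 5 of life, either 2800000 colony-forming units of E. coli or PBS alone, and no group was left without aspiration. Cells of 2 juvenile or 3 neonatal mice were pooled for every library, per the labels, so that n = 3 counts pools. Lung CD4+ T cells were enriched with magnetic beads before fluorescence-activated sorting, and no source used here gives the sorting gate.

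The promoters of the members were read for 3 motifs, because the family is known to be regulated through them. The first was the gamma-activated site (GAS, TTCNNNGAA), which STAT dimers bind, and the second was the interferon-stimulated response element (ISRE, GAAA and again GAAA after any 2 bases), which IRF proteins bind. The last was the NF-kB motif, and all were searched on both strands in the 250 bases before each RefSeq start (GRCm38.p6). Of 32851 such windows, 7.02% held the GAS, 2.98% the ISRE and 3.9% the NF-kB motif. All 8 members were matched, with 11 windows. Matches lay at Irf1, Irf2 and Irf8, and stretches with matches are shown on the plus strand, because these are the members whose windows hold any of the 3 motifs. Capitals mark the motif letters.
Irf1 chr11:53769909-53770013: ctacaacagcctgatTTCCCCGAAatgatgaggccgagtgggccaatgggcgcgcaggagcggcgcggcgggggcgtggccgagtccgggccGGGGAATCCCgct
Irf2 chr8:46739495-46739544: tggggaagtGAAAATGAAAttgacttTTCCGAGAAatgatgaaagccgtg
Irf8 chr8:120736172-120736228: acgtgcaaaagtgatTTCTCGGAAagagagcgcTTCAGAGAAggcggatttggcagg
The Irf1 stretch holds a GAS from -90 to -82 and an NF-kB match from -13 to -4, counted from the start. In the Irf2 stretch the ISRE comes first and the GAS after it, and an NF-kB match of the same window from -17 to -8 lies outside the stretch shown. The Irf8 stretch holds 2 GAS matches. The windows of Irf3, Irf4, Irf5, Irf7 and Irf9, and the windows of a further start of Irf1 and of Irf8, did not hold these letters.

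Libraries held 6035445 to 8129983 gene counts, so that 3 counts, the limit that a count of 0 allows, stood for 0.374 to 0.494 CPM, the unit of all levels here, in which a gene's count is set against its library's scaled total. Such limits cover counting error only. T cell markers were abundant in all libraries, with Cd3e between 1420 and 2030 CPM. Juvenile E. coli libraries summed to 4850 to 5240 CPM over 9 T cell markers, juvenile PBS to 5900 to 6630, neonatal E. coli to 5120 to 5410 and neonatal PBS to 5210 to 5920. Of these 9, 5 fell in juveniles with E. coli, where 9.42% of all tested genes fell. Markers of immature T cells, summed over 7 genes, were at 433 to 608 CPM in juvenile E. coli and 161 to 201 CPM in neonatal E. coli libraries. Ccr9 alone held 362, 325 and 219 CPM of the juvenile E. coli sums. It was the only marker of the 7 that rose with E. coli in juveniles by edgeR (6 rose by limma voom). PBS libraries split within each age, with 518 CPM in juvenile library 2 against 143 and 176 CPM in the others, and 715 CPM in neonatal library 1 against 220 and 237 CPM in the others. Neutrophil markers, 12 genes with Elane at 0, summed to 9.66 to 22.3 CPM in juvenile E. coli, 0.33 to 3.89 in juvenile PBS, 10.1 to 56 in neonatal E. coli and 0.817 to 3.42 in neonatal PBS libraries. NK cell markers, 8 genes with Klra8 at 0, summed to 30.9 to 44 CPM in juvenile E. coli, 17.3 to 20.1 in juvenile PBS, 17.8 to 23.4 in neonatal E. coli and 13.1 to 18.1 in neonatal PBS libraries. The part of these cells in the members' values was not tested. These are bulk samples, in which fewer cells of a type and less RNA per cell cannot be told apart.

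Within the family, Irf4 and Irf1 rose with E. coli in both ages, and Irf2 and Irf3 passed in neither. In juveniles 6 of the 8 members rose and none fell (edgeR quasi-likelihood test with Benjamini-Hochberg adjustment over all 11062 genes, adjusted p under 0.05). In the same comparison 15.4% of all tested genes rose, 9.42% fell and 24.8% passed in either direction. The 6 were Irf1, Irf4, Irf5, Irf7, Irf8 and Irf9, and the median log2 fold change of the 8 members was 0.497, against -0.0116 over all tested genes. In neonates 2 of the 8 rose, Irf1 and Irf4, where 1.05% of all genes rose, 0.145% fell and 1.19% passed in either direction. The neonatal median was 0.217 for members and -0.0027 for all genes. No member fell in either age by edgeR, and none fell at an unadjusted p under 0.05 or by DESeq2 or limma voom. Counts of genes that rose and fell in juveniles, 1705 and 1042, were 1468 and 1415 with upper-quartile scaling.

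**Figure D1:**
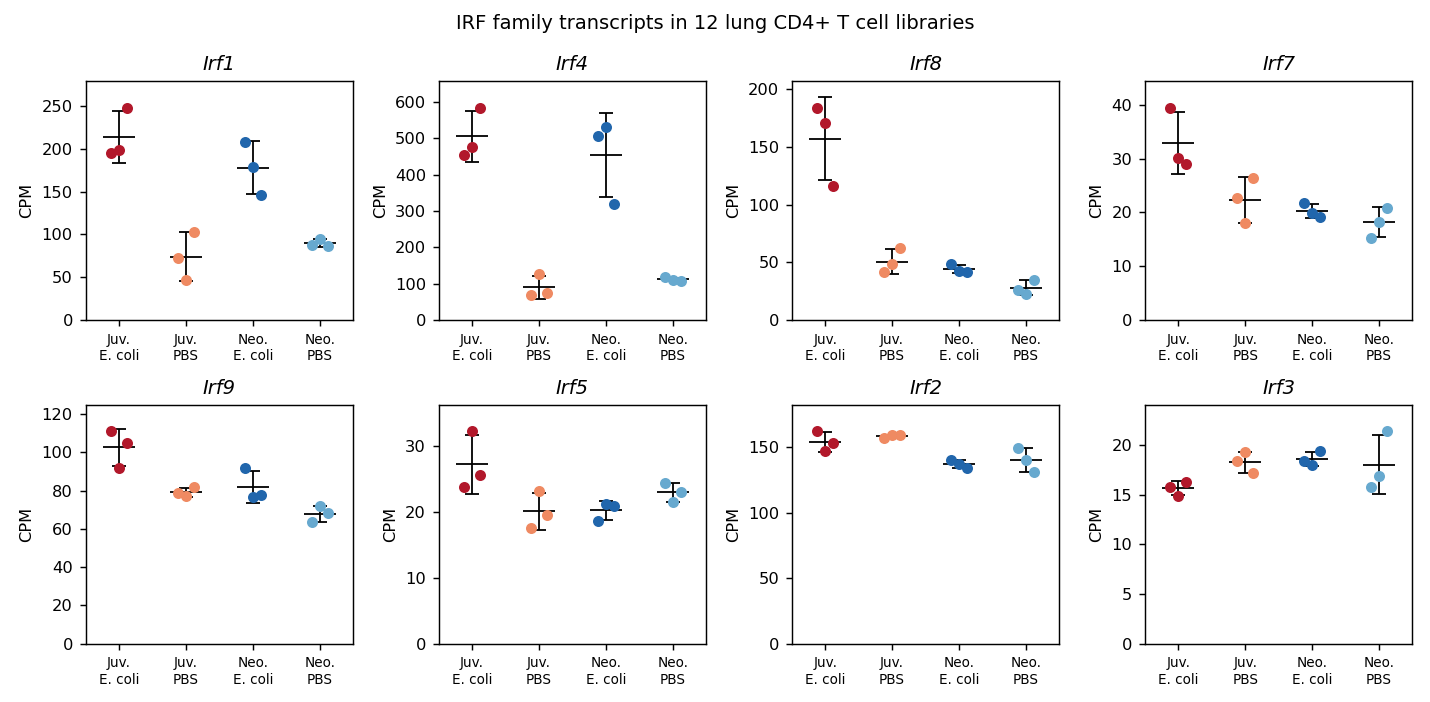
CPM of the 8 members in each of the 12 libraries (y axis, from 0), by group on the x axis. Points are libraries and bars are the mean ± SD of 3; Irf1 and Irf4 stand higher in both E. coli groups than in PBS groups, Irf8 in the juvenile E. coli group, and Irf2 and Irf3 vary little.

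Irf4, which effector T cells induce in proportion to antigen receptor signal strength and need in order to differentiate, lies at chr13:30749226-30766976 (plus strand, GRCm38). Its levels were 454, 476 and 584 CPM in juvenile E. coli libraries and 69.2, 127 and 73.3 CPM in juvenile PBS libraries. In neonates, E. coli libraries had 507, 531 and 320 CPM, against 117, 110 and 108 CPM in neonatal PBS libraries. Every E. coli library stood above every PBS library, and the single lower E. coli value was neonatal library 3. The juvenile change was 2.50 ± 0.21 on the log2 scale (SE), or 5.64-fold (adjusted p = 2.13e-06), and the neonatal change was 2.02 ± 0.21, or 4.07-fold (adjusted p = 0.000263). The difference of the responses, juvenile minus neonatal, was 0.47 ± 0.29 (95% interval -0.15 to 1.09, adjusted p = 0.37). It passed without juvenile PBS library 2 (0.80, adjusted p = 0.0314) and with limma voom (0.71, adjusted p = 0.043), among 19 alternatives with adjusted p from 0.0314 to 0.601. Over the 12 libraries the highest value was 8.44 times the lowest. Relative to Cd3e, a subunit of the T cell receptor complex, Irf4 was 0.312 ± 0.0473 in juvenile E. coli, 0.0492 ± 0.0225 in juvenile PBS, 0.286 ± 0.0759 in neonatal E. coli and 0.0695 ± 0.00539 in neonatal PBS libraries (ratio of CPM, SD, n = 3 each).

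Irf1, an activator of antigen presentation and guanylate-binding protein genes downstream of interferon gamma, lies at chr11:53770014-53778374 (plus strand). It had 195, 198 and 248 CPM in juvenile E. coli libraries and 72.2, 46.3 and 103 CPM in juvenile PBS libraries. Among neonates, levels were 208, 179 and 146 CPM in E. coli libraries and 87.3, 95 and 86.4 CPM in PBS libraries. E. coli and PBS libraries did not overlap in either age, and the 3 juvenile PBS libraries spread more widely than the 3 neonatal PBS libraries. In juveniles Irf1 rose by 1.53 ± 0.21, or 2.89-fold (adjusted p = 8.55e-05). In neonates it was 0.99 ± 0.20, or 1.98-fold (adjusted p = 0.0262), a call that was lost without neonatal E. coli library 1 (adjusted p = 0.108) or 2 (0.0978), or without neonatal PBS library 1 (0.123), 2 (0.0831) or 3 (0.097), with 0.00039 to 0.123 over 20 alternatives. The difference of the responses was 0.54 ± 0.29 (95% interval -0.07 to 1.16, adjusted p = 0.287), and it passed only without juvenile PBS library 3 among the 19 alternatives (0.87, adjusted p = 0.0475, the highest being 0.455).

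Irf7 and Irf9 rose in juveniles, with 95% intervals (0.21 to 0.91 and 0.16 to 0.59) below those of Irf1 (1.09 to 1.97) and Irf4 (2.04 to 2.95), and did not pass the test in neonates. That contrast between the ages was itself tested, and neither gene's difference passed. Irf7, which drives interferon alpha genes and is amplified by interferon, lies at chr7:141262706-141266481 (minus strand). It had 39.5, 30.2 and 29 CPM in juvenile E. coli libraries and 22.6, 18 and 26.5 CPM in juvenile PBS libraries. Neonatal E. coli libraries had 21.7, 19.9 and 19.1 CPM and neonatal PBS libraries 15.3, 18.3 and 20.9 CPM. The juvenile groups did not overlap, with library 1 the highest, while the neonatal groups did. Irf7 rose in juveniles by 0.56 ± 0.16, or 1.47-fold (adjusted p = 0.0222), and the neonatal change 0.16 ± 0.17 (adjusted p = 0.812). The juvenile call was lost without juvenile E. coli library 1 (0.38, adjusted p = 0.146), without juvenile PBS library 1 (0.0563) or 2 (0.0598), without the 2 PBS libraries rich in immature T cell markers together (0.0518), and with only the 2 groups fitted (0.0686). Over 20 alternatives its adjusted p ran from 0.0107 to 0.146. The difference of the responses was 0.40 ± 0.24 (95% interval -0.11 to 0.90, adjusted p = 0.353).

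Irf9, the DNA-binding subunit that joins STAT proteins, Stat2 among them, in the complex ISGF3, lies at chr14:55603571-55610030 (plus strand). Juvenile E. coli libraries had 111, 92 and 105 CPM, and juvenile PBS libraries had 78.7, 77 and 81.8 CPM. In neonates the E. coli libraries had 91.6, 76.8 and 77.7 CPM, against 63.4, 71.9 and 68.1 CPM in PBS libraries. E. coli libraries stood above PBS libraries in both ages, narrowly so in neonates. Irf9 rose in juveniles by 0.38 ± 0.10, or 1.3-fold (adjusted p = 0.0143, and 0.0972 without juvenile E. coli library 1, in a range of 0.00435 to 0.0972 over 20 alternatives). The neonatal change was 0.28 ± 0.10, or 1.21-fold, with an unadjusted p of 0.0174 and an adjusted p of 0.282. The difference of the responses was 0.10 ± 0.15 (95% interval -0.21 to 0.41, adjusted p = 0.736).

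**Figure D2:**
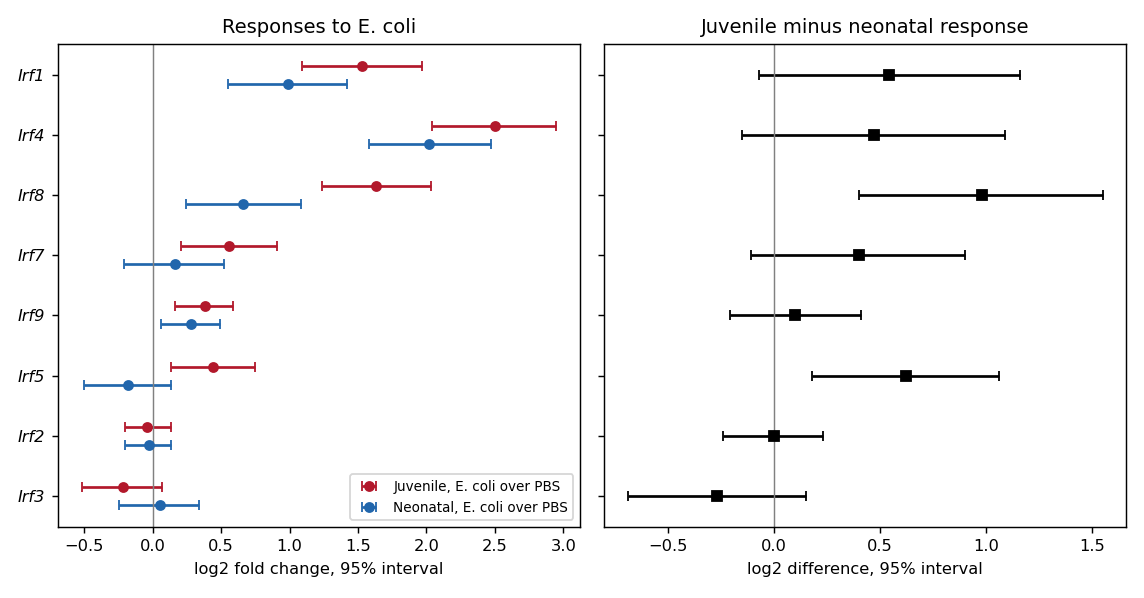
Left, log2 fold change of E. coli over PBS with its 95% interval for each member, juvenile above neonatal; right, the juvenile minus the neonatal response with its 95% interval. The intervals of Irf1, Irf4, Irf7 and Irf9 on the right all cross 0, and those of Irf8 and Irf5 do not, of which Irf8 passed after adjustment over all genes.

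Irf8 was the only member for which the test of the difference between ages passed. Its level moved with Siglech, Tcf4 and Bcl11a, transcripts of plasmacytoid dendritic cells, though not with every marker of these cells. Irf8 is needed for the development of dendritic cells and monocytes, and is also expressed in activated T cells. At chr8:120736358-120756694 (plus strand) it had 184, 171 and 116 CPM in juvenile E. coli libraries and 41.4, 48.5 and 62 CPM in juvenile PBS libraries. In neonates they were 48.1, 42.1 and 41.7 CPM with E. coli and 26, 22.8 and 35.1 CPM with PBS. The juvenile E. coli libraries stood far above the other 9, and neonatal E. coli libraries stood above neonatal PBS libraries. The juvenile change was 1.63 ± 0.19, or 3.1-fold (adjusted p = 2.04e-05), and the neonatal change was 0.66 ± 0.20 (adjusted p = 0.158, and 0.029 with only the neonatal groups fitted, in a range of 0.029 to 0.433 over 20 alternatives). For the difference of the responses, 1 of 8 members passed, where 5.05% of all genes were higher, 1.94% lower and 7.00% passed in either direction. For Irf8 that difference was 0.98 ± 0.27 (95% interval 0.40 to 1.55, adjusted p = 0.0424). The median difference was 0.435 over the members and -0.0144 over all genes.

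The Irf8 difference lay close to the threshold. It was lost without juvenile E. coli library 1 (adjusted p = 0.129) or 2 (0.105), juvenile PBS library 1 (0.0999), neonatal E. coli library 1 (0.0772), 2 (0.104) or 3 (0.0746), or neonatal PBS library 1 (0.0862) or 3 (0.142). Its adjusted p was 0.0543 with upper-quartile scaling, and 0.0612 without neonatal PBS library 1 and juvenile PBS library 2 together. Over 19 alternatives the estimate ran from 0.75 to 1.2 and its adjusted p from 0.00257 to 0.142.

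Siglech, a surface receptor of plasmacytoid dendritic cells, had 188, 200 and 136 CPM in juvenile E. coli and 45.2, 59.5 and 59.5 CPM in juvenile PBS libraries. It had 46, 30.7 and 43.5 CPM in neonatal E. coli and 20.4, 21.1 and 31.7 CPM in neonatal PBS libraries. The ratio of Irf8 to Siglech CPM was 0.894 ± 0.0725 in juvenile E. coli, 0.924 ± 0.115 in juvenile PBS, 1.13 ± 0.218 in neonatal E. coli and 1.15 ± 0.107 in neonatal PBS libraries (SD, n = 3 each). Between juvenile E. coli and juvenile PBS that ratio overlapped (exact two-sided permutation test, p = 0.7, smallest possible 0.1). It was lower in every juvenile PBS library than in every neonatal PBS library (p = 0.1, same exact permutation test). Irf8 over Tcf4, another gene of these cells, was higher in every neonatal E. coli library than in every neonatal PBS library, at 0.853 ± 0.106 against 0.669 ± 0.0827. Over the 12 libraries the highest ratio of Irf8 to Siglech was 1.69 times the lowest, against 8.1 times for the ratio of Irf8 to Cd3e. Cd3e varied little (1420 to 2030 CPM), so that the second range is nearly that of Irf8 by itself, 8.08 times. A gene high in juvenile E. coli libraries can give a narrower range than Cd3e whatever cells it comes from, so these ranges do not tell the source of Irf8. The 7 plasmacytoid dendritic cell markers, none of them at 0 in any group, summed to 695 to 947 CPM in juvenile E. coli, 273 to 340 in juvenile PBS, 230 to 288 in neonatal E. coli and 180 to 243 in neonatal PBS libraries. Of these 7, 5 rose in juveniles by edgeR, where 15.4% of all tested genes rose. In neonates 0 of the 7 passed by edgeR (3 at an unadjusted p under 0.05, 1 by DESeq2, 0 by limma voom). Pacsin1 (-0.05 ± 0.23, adjusted p = 0.9) and Cox6a2 (1.61 ± 0.68, adjusted p = 0.0991) did not pass in juveniles. Genes outside the list also stood highest in juvenile E. coli libraries, Maf among them. Maf had 239 ± 28.6 CPM in juvenile E. coli and 83.7 ± 7.36 CPM in juvenile PBS libraries. In neonates it had 74.1 ± 11.9 CPM with E. coli and 48.1 ± 1.18 CPM with PBS. The 11 conventional dendritic cell markers, none at 0, summed to 61.6 to 75.1 CPM in juvenile E. coli, 42.7 to 56.4 in juvenile PBS, 30.2 to 34 in neonatal E. coli and 26.3 to 30.9 in neonatal PBS libraries. Of the 9 of them tested, 2 rose in juveniles, Clec9a (1.76 ± 0.59, adjusted p = 0.0401) and Itgax (0.91 ± 0.28, adjusted p = 0.0293), and 0 passed in neonates by edgeR (0 at an unadjusted p under 0.05, and 0 by DESeq2 and limma voom). How much of the Irf8 signal came from dendritic cells of either kind was not tested.

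**Figure D3:**
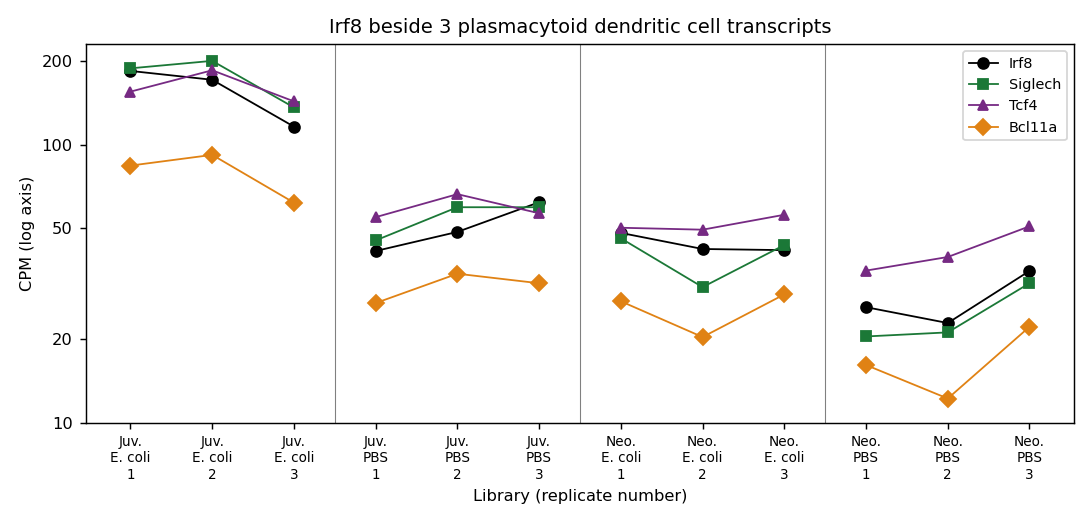
CPM (log axis) of Irf8 and of 3 plasmacytoid dendritic cell transcripts, Siglech, Tcf4 and Bcl11a, in each of the 12 libraries. Points of a group are joined for reading only; Irf8 and Siglech lie within a ratio of 0.814 to 1.37 in every library.

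Irf5, which acts downstream of Toll-like receptors mainly in myeloid and B cells, lies at chr6:29526625-29541871 (plus strand). It had 23.8, 32.3 and 25.7 CPM in juvenile E. coli libraries and 17.6, 23.2 and 19.6 CPM in juvenile PBS libraries. Neonatal E. coli libraries had 18.6, 21.3 and 20.9 CPM, and neonatal PBS libraries had 24.5, 21.5 and 23 CPM. Juvenile E. coli libraries stood just above juvenile PBS libraries, and neonatal E. coli libraries just below neonatal PBS libraries. The juvenile change of 0.44 ± 0.15 passed (adjusted p = 0.0396), the neonatal change of -0.18 ± 0.15 did not (adjusted p = 0.71), and the difference of 0.62 ± 0.21 did not (adjusted p = 0.0865). The difference passed without juvenile PBS library 2 (0.73, adjusted p = 0.0248) and with limma voom (0.86, adjusted p = 0.00514), where 19 alternatives reached up to 0.232. The juvenile call was lost in 13 of 20 alternatives, among them DESeq2 (adjusted p = 0.051), upper-quartile scaling (0.0633), no filter (0.0609) and only the juvenile groups fitted (0.123), with a range of 0.000868 to 0.202. Leaving out a library ended it for juvenile E. coli library 2 (0.202), for juvenile PBS libraries 1 (0.152) and 3 (0.0834), and for each neonatal library, E. coli (0.0603, 0.0633 and 0.0517) and PBS (0.0593, 0.0591 and 0.0634). Over all tested genes, 15.4% rose and 9.42% fell in juveniles, and 1.05% rose in neonates. Of 12 monocyte and macrophage markers, none at 0, 9 rose and 1 fell in juveniles and 1 rose in neonates. Their sum was 725 to 1010 CPM in juvenile E. coli, 290 to 412 in juvenile PBS, 291 to 435 in neonatal E. coli and 232 to 367 in neonatal PBS libraries. Ccr2 alone held 413, 433 and 366 CPM of the juvenile E. coli sums. The marker that fell was Chi3l3 (-4.06 ± 0.41, adjusted p = 7.92e-06). The 10 B cell markers summed to 56.2 to 95.1 CPM in juvenile E. coli, 56.9 to 106 in juvenile PBS, 88.8 to 106 in neonatal E. coli and 67.9 to 93.4 in neonatal PBS libraries. The part of these cells in the Irf5 values was not tested.

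Irf2 and Irf3 did not pass in either age. Irf2, a constitutive factor that competes with Irf1 for shared sites, lies at chr8:46739732-46847458 (plus strand). It had 162, 147 and 153 CPM in juvenile E. coli, 157, 159 and 159 CPM in juvenile PBS, 140, 137 and 134 CPM in neonatal E. coli and 149, 140 and 131 CPM in neonatal PBS libraries. Its highest library was 1.24 times its lowest, and its changes were -0.04 ± 0.08 in juveniles (95% interval -0.20 to 0.13) and -0.03 ± 0.08 in neonates. Irf3, a latent factor that is activated by phosphorylation, lies at chr7:44997648-45002848 (plus strand). It had 15.8, 14.9 and 16.3 CPM in juvenile E. coli, 18.4, 19.3 and 17.2 CPM in juvenile PBS, 18.4, 18 and 19.4 CPM in neonatal E. coli and 15.8, 16.9 and 21.4 CPM in neonatal PBS libraries. Juvenile E. coli libraries were the lowest for Irf3 among juveniles, without overlap, yet the change of -0.22 ± 0.14 did not pass (95% interval -0.52 to 0.07, adjusted p = 0.263). Its neonatal change was 0.05 ± 0.14 and turned to -0.03 without neonatal PBS library 1.

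Between the ages, differences passed for Irf8 after PBS, and for Irf8, Irf7 and Irf9 after E. coli. After PBS, 1 of the 8 was higher in juveniles than in neonates, where 1.75% of all genes were higher, 2.32% lower and 4.08% passed in either direction. That member was Irf8, with 50.6 ± 10.5 CPM in juvenile PBS and 28 ± 6.4 CPM in neonatal PBS libraries (log2 difference 0.86 ± 0.20, adjusted p = 0.0227). The call was lost without juvenile PBS library 3 (0.0846) or neonatal PBS library 1 (0.0954) or 2 (0.0845), and without neonatal PBS library 1 and juvenile PBS library 2 together (0.0908), in a range of 0.00144 to 0.0954. Siglech showed 1.17 ± 0.20 in the same comparison (adjusted p = 0.00527). Irf4 was 89.7 ± 32 CPM in juvenile PBS and 111 ± 4.68 CPM in neonatal PBS libraries (-0.31 ± 0.21, adjusted p = 0.491), and passed without juvenile PBS library 2 (-0.64, adjusted p = 0.0475, the highest of 20 alternatives being 0.798).

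After E. coli, 3 of the 8 were higher in juveniles than in neonates, where 11.3% of all genes were higher, 6.42% lower and 17.8% passed in either direction. The 3 were Irf8 at 157 ± 36.4 CPM against 44 ± 3.57 CPM, Irf7 at 32.9 ± 5.74 CPM against 20.3 ± 1.31 CPM, and Irf9 at 103 ± 9.75 CPM against 82.1 ± 8.32 CPM, juvenile E. coli first in each pair. Their log2 differences were 1.83 ± 0.19 for Irf8 (adjusted p = 7.74e-06), 0.70 ± 0.16 for Irf7 (adjusted p = 0.00801) and 0.32 ± 0.10 for Irf9 (adjusted p = 0.0383). Without juvenile E. coli library 1 neither Irf7 (0.0567) nor Irf9 (0.175) passed, these being the highest adjusted p of 20 alternatives, whose lowest were 0.000926 and 0.0157. Irf9 was also lost without juvenile E. coli library 3 (0.0806), juvenile PBS library 1 (0.0509), neonatal E. coli library 2 (0.163) or 3 (0.124), or any neonatal PBS library (0.0521, 0.0535 and 0.0587), and with upper-quartile scaling (0.0694) or no filter (0.0554). Irf1 and Irf4 did not pass between the 2 E. coli groups. Irf1 had 214 ± 30 CPM in juvenile and 177 ± 30.7 CPM in neonatal E. coli libraries (0.27 ± 0.20, adjusted p = 0.391). Irf4 had 505 ± 69.5 CPM in juvenile and 453 ± 116 CPM in neonatal E. coli libraries (0.16 ± 0.20, adjusted p = 0.643). Irf5 missed the threshold at 0.42 ± 0.14 (adjusted p = 0.054), passing without juvenile PBS library 2 (0.0274, or 0.0325 with neonatal PBS library 1 left out too), with only the E. coli groups fitted (0.0482) and with limma voom (0.00333), in a range up to 0.268. These 2 age comparisons share their libraries with the E. coli comparisons.

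Levels were ordered between members as CPM per kilobase of merged exons. In juvenile E. coli libraries Irf4 was first at 103 ± 14.2 CPM per kb and Irf1 next at 53.8 ± 7.55, both apart from the rest. Irf8 (22.2 ± 5.15), Irf2 (20.9 ± 1.01) and Irf9 (19.1 ± 1.81) then overlapped, followed by Irf5 (9.38 ± 1.55) and Irf7 (8.71 ± 1.52), which overlapped, and Irf3 (4.55 ± 0.201). In juvenile PBS libraries Irf2 (21.4 ± 0.185), Irf1 (18.6 ± 7.18), Irf4 (18.3 ± 6.53) and Irf9 (14.7 ± 0.453) each overlapped the next in order. They were followed by Irf8 (7.17 ± 1.49), Irf5 (6.93 ± 0.986), Irf7 (5.92 ± 1.13) and Irf3 (5.32 ± 0.302), again each overlapping the next.

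Neonatal E. coli libraries had Irf4 first (92.4 ± 23.6 CPM per kb), then Irf1 (44.7 ± 7.72), Irf2 (18.5 ± 0.377) and Irf9 (15.2 ± 1.54), each apart from the next. Below them came Irf5 (6.98 ± 0.496) and Irf8 (6.24 ± 0.505), which overlapped, and Irf3 (5.4 ± 0.222) and Irf7 (5.37 ± 0.345), which overlapped. In neonatal PBS libraries Irf4 (22.7 ± 0.952) and Irf1 (22.5 ± 1.19) overlapped at the top. Irf2 (19 ± 1.23), Irf9 (12.6 ± 0.8) and Irf5 (7.93 ± 0.518) followed apart from each other, and Irf3 (5.24 ± 0.864), Irf7 (4.82 ± 0.742) and Irf8 (3.97 ± 0.908) overlapped at the bottom. The choice of length moved this order. The longest CCDS transcript of Irf2 has 2497 bases against 7396 of merged exons, that of Irf1 2137 against 3976 and that of Irf4 4764 against 4903. Per kilobase of that transcript, Irf2 was first in juvenile PBS (63.4 ± 0.549) and neonatal PBS (56.2 ± 3.65) libraries, and Irf1 (100 ± 14) stood beside Irf4 (106 ± 14.6) in juvenile E. coli libraries. Lower members also moved by their means. Irf8 (9.83 ± 2.25) then came before Irf3 (8.88 ± 1.46) and Irf7 (8.13 ± 1.25) in neonatal PBS libraries. In juvenile E. coli libraries Irf7 (14.7 ± 2.56) came before Irf5 (12.2 ± 2).

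The balance of Irf1 to its competitor Irf2, per kilobase of merged exons, was 2.58 ± 0.397 in juvenile E. coli and 0.868 ± 0.332 in juvenile PBS libraries. It was 2.4 ± 0.369 in neonatal E. coli and 1.19 ± 0.0922 in neonatal PBS libraries (SD, n = 3 each). E. coli libraries stood above PBS libraries in both ages (exact two-sided permutation test, p = 0.1 in each, the smallest that 3 against 3 allows). With the CCDS transcript lengths all these ratios were 1.59 times lower, at 1.62 ± 0.249 in juvenile E. coli, 0.545 ± 0.208 in juvenile PBS, 1.51 ± 0.232 in neonatal E. coli and 0.748 ± 0.0579 in neonatal PBS libraries, so that the neonatal PBS value lay above 1 with the first length and below 1 with the other. Irf4 over Irf8, per kilobase of merged exons, was 4.94 ± 2.03 in juvenile E. coli, 2.62 ± 1.05 in juvenile PBS, 14.8 ± 3.57 in neonatal E. coli and 5.93 ± 1.34 in neonatal PBS libraries. Every neonatal E. coli library, the lowest at 11, had a higher Irf4 to Irf8 ratio than every juvenile E. coli library, the highest at 7.27 (exact permutation test, p = 0.1). With the CCDS transcript lengths the Irf4 to Irf8 ratios were 2.41 times lower, at 2.05 ± 0.842 in juvenile E. coli, 1.09 ± 0.434 in juvenile PBS, 6.14 ± 1.48 in neonatal E. coli and 2.46 ± 0.556 in neonatal PBS libraries. A change of length scales every library alike and leaves both tests as they are.

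The pathway around the family was read from lists that were chosen with earlier results of these data known. Of 16 interferon genes in the table, 11 had 0 counts in all libraries, Ifnb1 among them, and only Ifng, the gene of interferon gamma, had enough counts to be tested. Ifng had 60, 29 and 38.1 CPM in juvenile E. coli and 3.46, 6.1 and 5.58 CPM in juvenile PBS libraries. It had 3.7, 5.61 and 6.19 CPM in neonatal E. coli and 3.57, 4.03 and 3.43 CPM in neonatal PBS libraries. The 3 juvenile E. coli libraries stood apart from the other 9. The juvenile change was 3.08 ± 0.28, or 8.45-fold (adjusted p = 3.04e-06), and the neonatal change was 0.48 ± 0.33 (adjusted p = 0.642).

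Over all tested genes, 15.4% rose and 9.42% fell in juveniles, and 1.05% rose and 0.145% fell in neonates. Among 10 receptor and JAK-STAT genes, 5 rose and 1 fell in juveniles, with a median of 0.38. Among those that rose were Stat2 (1.54 ± 0.14, adjusted p = 3.45e-06), Jak2, Ifngr1 and Ifnar2, and Jak1 fell. In neonates 0 of the 10 passed by edgeR (1 at an unadjusted p under 0.05, 0 by DESeq2 and limma voom), with a median of 0.07. Stat2, a partner of Irf9, had 160, 124 and 105 CPM in juvenile E. coli, 44.8, 46.1 and 43 CPM in juvenile PBS, 56.5, 55.8 and 48.2 CPM in neonatal E. coli and 37.6, 41.8 and 48.2 CPM in neonatal PBS libraries. Of 17 sensors and kinases that act on Irf3 and Irf7, 9 rose and 2 fell in juveniles. The 11 calls became 6 without juvenile E. coli library 1 and 7 without juvenile E. coli library 2. The RNA sensor Ifih1 rose by 1.12 ± 0.15 (adjusted p = 9.03e-05) and the DNA sensor Tlr9 by 1.58 ± 0.25 (adjusted p = 0.00029), while the kinase Ikbke fell by 0.60 ± 0.11 (adjusted p = 0.00109). Tlr9 is also known as a plasmacytoid dendritic cell transcript, a class whose summed markers were highest in the same libraries. In neonates 0 of the 17 passed by edgeR (2 at an unadjusted p under 0.05, 0 by DESeq2 and limma voom).

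Of 14 inputs and partners of Irf4, 5 rose and 2 fell in juveniles, and 3 rose in neonates (5 with only the neonatal groups fitted). Over all tested genes, 15.4% rose and 9.42% fell in juveniles, and 1.05% rose and 0.145% fell in neonates. Batf, which binds DNA together with Irf4 in T cells, had 28.7, 31.4 and 38.3 CPM in juvenile E. coli and 15.3, 15.2 and 13.4 CPM in juvenile PBS libraries. It had 38.8, 41.1 and 29.8 CPM in neonatal E. coli and 17.4, 19.2 and 16.2 CPM in neonatal PBS libraries. Groups did not overlap in either age, at 1.16 ± 0.15 in juveniles (adjusted p = 7.63e-05) and 1.06 ± 0.15 in neonates (adjusted p = 0.003). Stat3 also rose in both, by 0.86 ± 0.10 in juveniles (adjusted p = 3.22e-05) and 0.65 ± 0.10 in neonates (adjusted p = 0.00507). Rel, an NF-kB subunit that drives Irf4, rose in juveniles (0.81 ± 0.10, adjusted p = 2.7e-05), and its neonatal change was 0.27 ± 0.09 (adjusted p = 0.247). Jun rose in neonates (1.23 ± 0.21, adjusted p = 0.00705), with 0.44 ± 0.20 in juveniles (adjusted p = 0.126).

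Among genes that IRF proteins are known to drive, more passed in juveniles, where 15.4% of all tested genes rose, than in neonates, where 1.05% rose. Of 22 Irf1 targets, 19 rose in juveniles (median 1.65) and 1 in neonates (median 0.32), and none fell. In neonates that is 4.55% of the list, and 10 of the 22 were higher at an unadjusted p under 0.05, 4 by DESeq2 and 5 by limma voom. The neonatal count was 6 with only the neonatal groups fitted. It was 3 without juvenile E. coli library 1, 5 without juvenile E. coli library 3, 3 without juvenile PBS library 2, and 2 without juvenile PBS library 1 or 3 or neonatal E. coli library 3. Cd274, which encodes the ligand PD-L1, was the neonatal call. It had 355, 317 and 262 CPM in juvenile E. coli, 63.8, 71.9 and 65.5 CPM in juvenile PBS, 144, 130 and 100 CPM in neonatal E. coli and 74.2, 64.7 and 64.7 CPM in neonatal PBS libraries. E. coli and PBS libraries did not overlap in either age, at 2.22 ± 0.14 in juveniles (adjusted p = 2.02e-07) and 0.88 ± 0.14 in neonates (adjusted p = 0.00438). Gbp5, a guanylate-binding protein gene, changed by 2.80 ± 0.20 in juveniles (adjusted p = 5.44e-07) and by 0.55 ± 0.21 in neonates (adjusted p = 0.308).

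Of 13 genes that depend on Irf4 in T cells, 11 rose in juveniles (median 1.75) and 2 in neonates (median 0.43), and none fell. In neonates that is 15.4% of the list, and 5 of the 13 were higher and 1 lower at an unadjusted p under 0.05, with 3 higher by DESeq2 and 2 by limma voom. The neonatal count was 0 without neonatal E. coli library 2 or any neonatal PBS library, and 1 without neonatal E. coli library 3 or with only the neonatal groups fitted. Prdm1, the gene of Blimp-1, had 219, 202 and 149 CPM in juvenile E. coli, 41.2, 39.9 and 47.3 CPM in juvenile PBS, 43.5, 61.3 and 57.7 CPM in neonatal E. coli and 37.8, 41.9 and 41.2 CPM in neonatal PBS libraries. It rose by 2.15 ± 0.15 in juveniles (adjusted p = 5.34e-07), and its neonatal change was 0.43 ± 0.15 (adjusted p = 0.256). Maf, a regulator of interleukin genes, rose in both ages, by 1.51 ± 0.12 in juveniles (adjusted p = 1.22e-06) and 0.62 ± 0.13 in neonates (adjusted p = 0.0231). The other neonatal call was Il17a, which had 17, 21 and 23 counts in juvenile E. coli and 8, 16 and 8 counts in neonatal E. coli libraries, and 0 in all 6 PBS libraries. Against a floor of 3 counts per library it was at least 5.67-fold higher in juvenile E. coli libraries and at least 3.07-fold higher in neonatal E. coli libraries. With Il17a set at these bounds the list medians were 1.75 and 0.43.

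Of 27 antiviral genes that the Irf9 complex drives, 25 rose in juveniles (median 1.74), and none fell. In neonates 0 passed by edgeR (2 lower at an unadjusted p under 0.05, 0 by DESeq2, 1 lower by limma voom), with a median of -0.03. Ifit1 had 350, 200 and 166 CPM in juvenile E. coli and 52.6, 61.6 and 47.7 CPM in juvenile PBS libraries. It had 45.4, 35.9 and 34.1 CPM in neonatal E. coli and 50.1, 39.3 and 41.2 CPM in neonatal PBS libraries. The juvenile change was 2.15 ± 0.22 (adjusted p = 1.03e-05) and the neonatal change -0.18 ± 0.23 (adjusted p = 0.854). Parp14 and Zbp1 rose in juveniles by 1.12 ± 0.10 (adjusted p = 2.13e-06) and 1.56 ± 0.14 (adjusted p = 3.46e-06). For the juvenile minus neonatal response, 5.05% of all tested genes were higher and 1.94% lower. That difference passed for 19 of these 27 genes, 14 of the 22 Irf1 targets and 6 of the 13 Irf4-dependent genes, all of them higher in juveniles. Over 19 alternatives these counts ran from 16 to 22, 12 to 17 and 5 to 8. Summed monocyte and plasmacytoid dendritic cell markers, given above, were highest in the same juvenile E. coli libraries. The part of these cells in the list values was not tested.

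**Figure D4:**
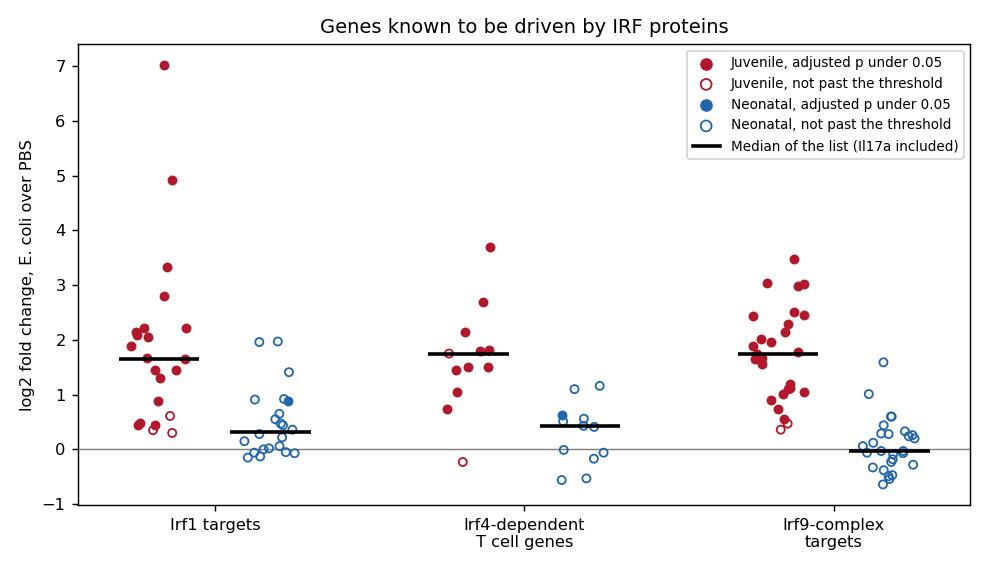
Log2 fold change of E. coli over PBS (y axis) for the tested genes of 3 lists of IRF-driven genes, juvenile left and neonatal right in each. Filled points passed at an adjusted p under 0.05 and bars are list medians; Il17a, at 0 counts in PBS, is not drawn but is in the medians, which are 1.65, 1.75 and 1.74 in juveniles and 0.32, 0.43 and -0.03 in neonates.

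The genes most like each member were those with the smallest root-mean-square difference of centred log2 CPM over the 12 libraries. For Irf1 they were Sbno2 (0.237), Nfkbiz (0.257) and Furin (0.266). Sbno2 had 36.3 ± 2.79 CPM in juvenile E. coli, 14.4 ± 2.75 CPM in juvenile PBS, 36.4 ± 5.27 CPM in neonatal E. coli and 15 ± 2.85 CPM in neonatal PBS libraries. For Irf4 they were Bcl3 (0.364), Icam1 (0.421) and Map3k8 (0.429), so that even the nearest gene was less close than for Irf1. Bcl3, a nuclear partner of NF-kB, had 55.7 ± 9.66 CPM in juvenile E. coli, 11.2 ± 1.11 CPM in juvenile PBS, 48.7 ± 8.89 CPM in neonatal E. coli and 16.2 ± 3.2 CPM in neonatal PBS libraries. For Irf7 they were Znfx1 (0.122), Mctp2 (0.134) and Fuca2 (0.163), and for Irf9 Fndc3a (0.103), Tceb3 (0.107) and Nucb1 (0.113). Members with a small range over the libraries have small differences of this kind from many genes.

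The kit is known not to keep strand, so reads of overlapping genes cannot be told apart. Of the exon bases of Irf3, 1061 lie within the span of Bcl2l12, and 416 of Irf5 within that of Tnpo3. For Irf9, 123 exon bases lie within the span of Rnf31, and for Irf7, 45 within that of Phrf1. These spans include introns, and the exons of the partners were not compared. All 4 partners have rows of their own in the table. The gene model Gm20388 spans all 7055 exon bases of Irf8 on the same strand, and Gm17334 spans 135 exon bases of Irf1. Neither was analysed here.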

How the data were processed

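RNA was measured in 12 libraries of sorted lung CD4+ T cells, 3 per group. Per the labels, cDNA was made with a Nugen Ovation amplification kit, known not to keep strand, before sequencing of paired ends of 100 bases. Per the submitters' processing notes, CASAVA 1.8.4 and STAR were used with GRCm38 (mm10). The deposited values are raw counts per gene, not normalized, made with SeqMonk as the authors' table is named. No source used here gives the annotation, strand setting or filters of the counting. No column was left unmapped.

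Genes were filtered with filterByExpr (minimum count 10, minimum total 15), which kept 11062 genes and 99.9% of counts. Counts were scaled by TMM and tested with edgeR 4.0.16 (R 4.3.3) quasi-likelihood F tests on 4 group means over all 12 libraries, with Benjamini-Hochberg adjustment over all tested genes and a threshold of 0.05. All adjusted p-values in the text are from this fit unless another tool or a left-out library is named. Standard errors are the log2 fold change over the square root of F. CPM are counts over the TMM-scaled total of tested genes. Log2 fold changes are E. coli over PBS or juvenile over neonatal. No 2 libraries of a group agreed within counting noise. Fits were tested on simulated counts.

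The members, lists, tests and alternatives were chosen with earlier results of these data known, and the lists are described by counts and medians. Named beside the members are up to 3 called genes of smallest p per list in each E. coli response and in the difference of responses, the 3 nearest genes to Irf1, Irf4, Irf7 and Irf9 (average log2 CPM of at least 3, predicted genes passed over) and the marker with most counts of each cell type. Other names were chosen after their values were seen. Not every gene the rule selects is described, and some items are not reported here. Of 216 list entries, 207 matched a row. Coordinates are GRCm38 from GENCODE M21, and promoter sequences are from RefSeq (GRCm38.p6). The alternatives scaled by RLE or the upper quartile, used DESeq2 1.42.0 or limma 3.58.1 (voom with sample weights), dropped the filter, fitted only the groups compared, added a replicate block, or left out each library in turn. The omission of 2 libraries together and the CCDS transcript length, for levels and ratios, were added after seeing the data. Ratios used exact permutation tests (scipy).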

Additional observations from a re-analysis of the deposited data

Results flagged for a closer look

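Responses to E. coli that differed between the ages, by the test of the juvenile minus the neonatal log2 fold change (edgeR, adjusted p under 0.05), are given here. Among the 8 members only Irf8 did so, at 0.98 ± 0.27 (adjusted p = 0.0424), with all 3 juvenile E. coli libraries above the other 9.

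The genes given here from around the family all had a larger log2 fold change with E. coli in juveniles than in neonates, except Ikzf1. Ifng, the only interferon gene tested, differed by 2.60 (adjusted p = 0.00318). Among signal transducers Stat2 differed by 1.20 and Jak2 by 0.65, and among RNA sensors Ifih1 by 1.36, Ddx58 by 0.63 and Dhx58 by 1.56. Of the Irf4 inputs and partners, Ikzf3 differed by 0.86, Rel by 0.54 and Ikzf1 by -0.47. The level of Rel was lower in juveniles, at 205 ± 5.76 CPM against 339 ± 47.9 CPM in neonates after PBS (-0.73, adjusted p = 0.000568). After E. coli it was 360 ± 29 CPM in juveniles and 409 ± 17.3 CPM in neonates (-0.18, adjusted p = 0.201). Of the Irf4-dependent genes, Prdm1 differed by 1.72, Ctla4 by 1.86 and Tigit by 2.01. Of the antiviral genes, Parp14 differed by 1.18, Oas3 by 2.03 and Ifit1 by 2.32. Of the Irf1 targets, the guanylate-binding protein genes Gbp6, Gbp3 and Gbp7 differed by 2.07, 2.34 and 1.50.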

How the results depend on the processing

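Of 792 fits of single members under the alternatives, 716 kept direction and side of the threshold, 51 lost a call, 11 gained one and 14 changed sign. The calls of Irf1, Irf4 and Irf8 in juveniles and of Irf4 in neonates held in all 20 alternatives. Leaving out each library gave 4 to 6 members called in juveniles, 1 to 2 in neonates, 0 to 3 for the difference, 0 to 2 between ages after PBS and 1 to 4 after E. coli. Counts over all genes were then 1656 to 3204, 55 to 238, 368 to 1553, 177 to 671 and 1108 to 2637 in that order. For the difference, the members called were 3 with limma voom and 0 with upper-quartile scaling, with the replicate block and without neonatal PBS library 1 and juvenile PBS library 2 together; the last omission gave 0 after PBS. All genes called were 4480, 312, 2300, 927 and 3810 with limma voom in that order, 235 in neonates and 702 after PBS with DESeq2, and 320 in neonates and 280 after PBS with only the groups compared. Mean Irf2 in juvenile PBS was 161 CPM with upper-quartile scaling.

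Sign changes were in fits that did not pass. Leaving out each library gave log2 ranges of -0.07 to 0.02 for Irf2 and -0.03 to 0.19 for Irf3 in neonates, -0.08 to 0.03 for the Irf2 difference, -0.04 to 0.19 for Irf3 after PBS and -0.04 to 0.28 for Irf4 after E. coli. The ranges were -0.13 to 0.05 for Irf2bp2 in juveniles, and -0.16 to 0.06 for Irf2bp1 (both encode partners of Irf2) and -0.05 to 0.03 for Znfx1 in neonates. DESeq2 gave 0.00 for the Irf2 difference. Leaving out both PBS libraries gave 0.01 for Irf2 and -0.04 for Irf3 in neonates, and -0.10 for Irf3 after PBS. The causes were not tested.

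The replicate numbers do not pair the samples: same-numbered deviations correlated from -0.176 to 0.223, and 5 of 12 libraries correlated best with their own number. With the replicate block, Irf8's difference had an adjusted p of 0.0662 and Irf9 after E. coli 0.052. Depth limits the weakest members, with 103 to 314 counts per library for Irf7 and 106 to 144 for Irf3.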
